A study of Mus musculus with 80 samples.

Results

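Expression of 10 genes of retroelement and heterochromatin silencing (Setdb1, Trim28, Atf7ip, Mphosph8, Morc3, Suv39h1, Suv39h2, Ehmt1, Ehmt2 and Zfp809) was followed in chromatin-associated RNA of mouse embryonic stem (mES) cells after loss of m6A or nuclear RNA decay factors. The members were chosen by gene name among the 22556 genes listed in each of 6 expression tables, and all 10 passed the filter of a mean of at least 1 CPM (reads per M reads, scaled by library size, both alleles together) in every table. The study used chromatin-associated RNA sequencing (ChrRNA-seq), which reads mostly unspliced RNA still attached to chromatin, to ask how depletion of m6A-related proteins changes Xist-mediated silencing. The 80 libraries, in 32 groups, held 8.58 to 34.4 M reads each (M, mega), with a median of 22.5 M. Reads were counted over the whole gene span, introns included, and depth covers counting error only.

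All cells are Cast x 129S hybrid mES cells grown on inactivated mouse fibroblast feeders, and all carry a TetOn promoter in place of the endogenous promoter of Xist on a single X chromosome. Doxycycline (Dox) for 24 h induces Xist from that X. An FKBP12 degron tag on the targeted protein lets the small molecule dTAG trigger its loss. Every line has 4 treatments: none, dTAG alone (26 h), Dox alone (24 h), and a 2 h start of dTAG before 24 h of both agents (dTAG + Dox). METTL3, which places m6A on RNA, was degraded in 4 clones with TetOn on the Cast allele, of which G4 and H1 carry an N-terminal tag and C3 and H5 a C-terminal tag. GFP-METTL3 was then expressed from Rosa26 in clone H5 as wild type (WT) or as D395A, a substitution that leaves METTL3 without catalytic activity. These transgene lines were 1 clone each, with 2 replicates of the clone. A WT and a D395A line were in XX cells, which keep both X chromosomes, and another of each in XiO cells. The XiO cells hold only the X with inducible Xist, and the other X was not detected in them. The treatments of a transgene replicate were split from the same cells, so members were also tested with the replicate as a block. YTHDC1, the nuclear reader of m6A, was degraded in clones Y9F and Y12H with Bgl-tagged Xist on the 129S allele, in 2 experiments. The first YTHDC1 experiment shares a table with ZCCHC8 (called here the shared table), and the other has its own (the separate table). ZCCHC8, the scaffold of the exosome adaptor NEXT, was degraded in clones Z4F and Z12H, also with Bgl-tagged Xist on the 129S allele. ZFC3H1, a subunit of the PAXT complex, was degraded in clones 8H and 11A with TetOn on the Cast allele. Clones of a line were the replicates of the degron lines, and each clone was compared with itself. Their p-values thus measure how far the effect of a treatment varied between 2 to 4 clones. In the transgene lines, without the replicate block, they measure the spread between 2 samples of a single clone. In both, the spread was estimated over all libraries of a table together. In bulk RNA, fewer cells of a type and less RNA per cell cannot be told apart.

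Endogenous retroviruses and other repeats are held silent in mES cells mainly by trimethylation of histone H3 lysine 9 (H3K9me3). KRAB zinc finger proteins such as ZFP809 bind the element and recruit TRIM28, which brings in the methyltransferase SETDB1, and ATF7IP is the partner that keeps SETDB1 stable and in the nucleus. The HUSH complex, with MPP8 (gene Mphosph8) as its reader of H3K9me3, and the ATPase MORC3 act on the same marks, SUV39H1 and SUV39H2 write H3K9me3 at pericentromeric repeats, and EHMT1 and EHMT2 (GLP and G9a) write H3K9me2.

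The sequences of the 3 members whose changes are followed most closely are shown first. The promoters run from 250 bases before to 50 bases after an annotated start (RefSeq, GRCm38.p6), and capitals mark the letters CCAAT (a box of the factor NF-Y), the GC box GGGCGG, the ETS factor motif CCGGAAG and the box TATAAA, each on either strand. Setdb1 was higher after loss of METTL3 and of YTHDC1, Atf7ip was lower after loss of METTL3, and Suv39h1 is the member on the X chromosome and was higher after loss of ZCCHC8. The Setdb1 promoter (chr3:95357153-95357452, minus strand) held the ETS motif in 2 copies, the NF-Y box in 1 and the GC box in 1. The Atf7ip promoter (chr6:136518601-136518900, plus strand) held 29 CG dinucleotides, the NF-Y box in 1 copy and the GC box in 1. Suv39h1 has 2 annotated starts. The window of the upstream start (chrX:8074711-8075010, minus strand), shown here, held 15 CG dinucleotides, the NF-Y box in 2 copies and the GC box in 1, and the window of the other start (chrX:8074312-8074611) held 37 CG dinucleotides and the NF-Y box in 0 copies. Of 32851 mouse promoter windows of this length, 37.4% held the NF-Y box, 35.7% the GC box, 8.86% the ETS motif and 13.6% TATAAA, and the median CG count was 7. These matches are letters in a window, not measured binding.
Setdb1 promoter: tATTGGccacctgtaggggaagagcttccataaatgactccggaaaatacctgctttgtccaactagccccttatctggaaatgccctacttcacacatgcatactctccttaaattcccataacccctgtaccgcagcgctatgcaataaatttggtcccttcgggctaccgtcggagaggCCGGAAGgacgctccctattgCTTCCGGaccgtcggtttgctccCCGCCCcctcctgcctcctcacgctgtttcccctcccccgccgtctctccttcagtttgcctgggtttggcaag
Atf7ip promoter: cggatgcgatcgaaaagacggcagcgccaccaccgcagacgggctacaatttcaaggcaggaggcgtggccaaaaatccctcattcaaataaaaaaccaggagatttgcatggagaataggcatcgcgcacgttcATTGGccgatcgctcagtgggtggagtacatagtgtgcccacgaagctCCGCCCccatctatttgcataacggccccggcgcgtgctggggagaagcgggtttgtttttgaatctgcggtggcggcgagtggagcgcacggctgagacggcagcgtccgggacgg
Suv39h1 promoter: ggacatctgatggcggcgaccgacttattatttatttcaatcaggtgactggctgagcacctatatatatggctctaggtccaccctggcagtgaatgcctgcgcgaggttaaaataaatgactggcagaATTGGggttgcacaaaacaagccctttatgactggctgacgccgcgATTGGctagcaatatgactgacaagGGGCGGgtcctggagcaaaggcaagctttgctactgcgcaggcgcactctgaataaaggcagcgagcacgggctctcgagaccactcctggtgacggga

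The m6A writer acts at a short consensus of which GGACT is a frequent form, so its copies were counted in the longest coding transcript of each member. Setdb1 held 8 copies (1.72 per kb), Atf7ip 8 (0.993 per kb), Suv39h1 7 (2.52 per kb) and Zfp809 6 in a short transcript (4.21 per kb), against a median of 1.02 per kb over 21877 protein-coding genes. Morc3 held 1 copy, 0.239 per kb. A copy of these letters is not a measured m6A site. Atf7ip, at chr6:136518851-136607379 on the plus strand, has its longest coding exon in exon 2 (chr6:136559771-136561439, 1669 bases), with 3 copies. A stretch of it (chr6:136560394-136560693) is shown because Atf7ip had the most stable response to METTL3 loss, and capitals mark its 2 copies of GGACT.
Atf7ip exon 2 stretch: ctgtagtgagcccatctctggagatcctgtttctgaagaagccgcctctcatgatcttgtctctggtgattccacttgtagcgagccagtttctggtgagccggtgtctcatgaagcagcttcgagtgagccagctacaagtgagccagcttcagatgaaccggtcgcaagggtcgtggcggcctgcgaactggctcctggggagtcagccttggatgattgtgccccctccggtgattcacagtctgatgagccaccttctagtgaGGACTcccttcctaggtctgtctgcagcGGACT

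Libraries were checked before the members were compared. Of the mES cell markers, Zfp42 ranged from 133 to 996 CPM, Esrrb from 229 to 1080 CPM and Pou5f1 from 12.8 to 101 CPM over the 80 libraries, while Sox2 was listed at 0 in all of them; its span lies within Sox2ot on the same strand. The 8 fibroblast markers summed to 16.4 to 59.8 CPM, and to 1.44 to 18.4 CPM without Fbn1. Xist was at 1.22 to 738 CPM without Dox and at 1380 to 8950 CPM with Dox. The degrons act on protein, so RNA of the target genes does not report the depletion. Genes spanning under 3 kb took 0.497 to 4.57% of reads in the METTL3 libraries and 0.522 to 2.46% elsewhere, and this share is given beside the members it bears on.

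Levels per length differed over a wide range among the members. Over the 20 untreated libraries, Trim28, the universal corepressor of KRAB zinc finger proteins, had a median level of 36.6 CPM per kb of counted length (13.2 to 53.1). Morc3 followed with 5.90 (4.34 to 6.67), then Setdb1 with 4.84 (3.40 to 5.80), Mphosph8 with 4.66 (4.23 to 5.87) and Zfp809 with 4.35 CPM per kb (2.86 to 6.06). Atf7ip had a median of 3.34 (1.69 to 4.88), Ehmt1 2.72 (2.13 to 4.14), Suv39h2 2.26 (1.71 to 4.07), Ehmt2 2.17 (0.851 to 3.58) and Suv39h1 1.98 CPM per kb (1.24 to 2.77). Trim28 was above Morc3 in 20 of 20 libraries, Morc3 above Setdb1 in 19 and Zfp809 above Atf7ip in 20. Setdb1 and Mphosph8 changed places (Setdb1 higher in 9 of 20 libraries), as did Mphosph8 and Zfp809 (10 of 20), Suv39h2 and Ehmt2 (11 of 20) and Ehmt2 and Suv39h1 (10 of 20), so these neighbours did not differ beyond their spread. The counted length of Zfp809, 17653 bases, is longer than its deposited span (chr9:22225703-22239693) and shorter than its RefSeq span (chr9:22225667-22254117). Its value on this scale thus depends on the span used.

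Loss of METTL3 lowered Atf7ip, the SETDB1 partner, in all 4 clones with and without Dox. Setdb1 rose without Dox, a call that several alternatives lost, and Trim28 was not called. Without Dox, 5 of the 10 members passed an adjusted p of 0.05 in limma (dTAG against untreated): Setdb1, Suv39h2 and Zfp809 were higher, and Atf7ip and Mphosph8 were lower. Over all genes, 23.3% of 13367 were called in that comparison. With Dox (dTAG + Dox against Dox) Atf7ip was the single member called, and 10.5% of all genes were called. The median gene itself moved up with dTAG in this table, by 0.21 without Dox and 0.23 with Dox on the log2(CPM + 1) scale, and the median member moved by 0.26 in both. Relative to the median gene, Atf7ip was lower by 0.90 without and 0.70 with Dox, and without Dox Mphosph8 was lower by 0.43, while Setdb1 was 0.30, Suv39h2 0.35 and Zfp809 0.12 higher.

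**Figure D1:**
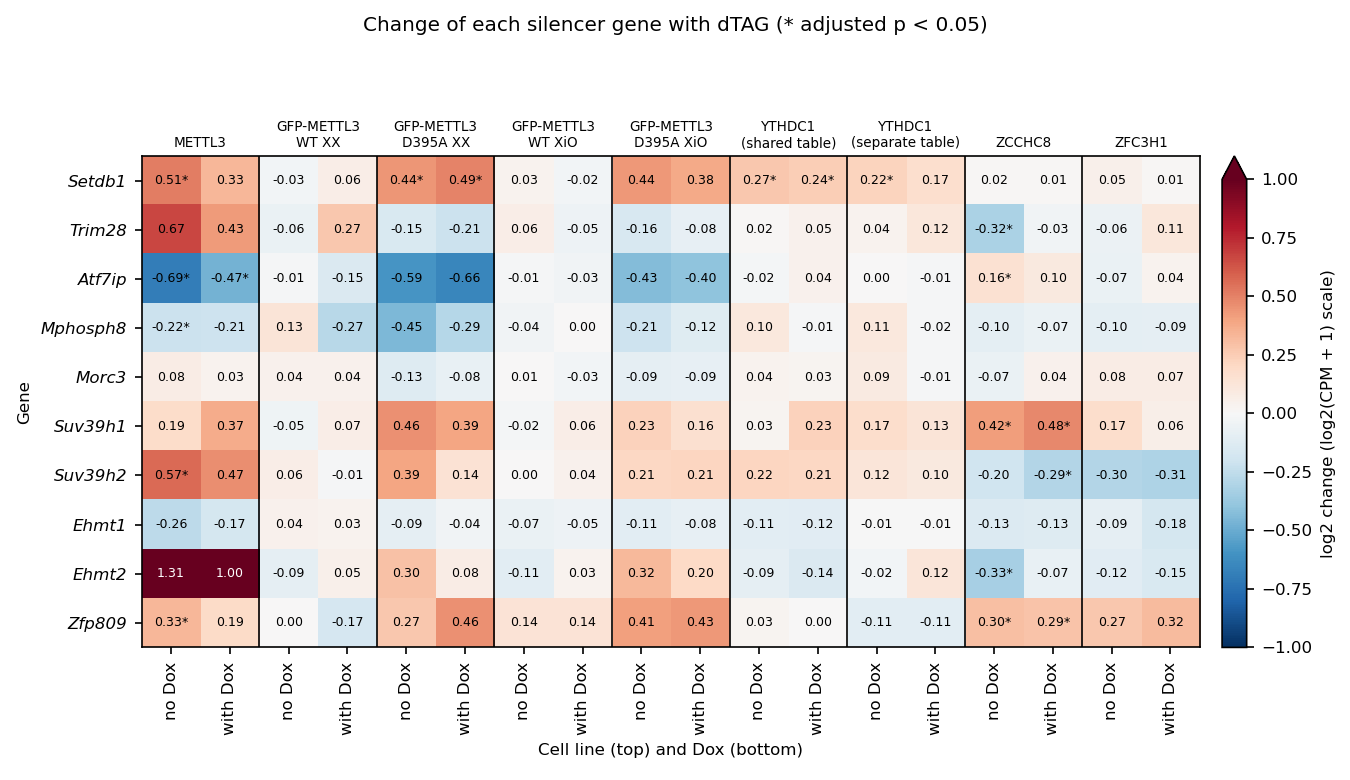
Change of each of the 10 genes (rows) with dTAG in each line without and with Dox (columns), as log2 change on the log2(CPM + 1) scale in colour and number, with asterisks for an adjusted p under 0.05 in limma. Atf7ip is lowest in METTL3 (-0.69 and -0.47) and D395A XX, Setdb1 is higher in METTL3, both D395A lines and YTHDC1, and the WT transgene columns hold no asterisk; transgene lines are shown from the fit without a replicate block.

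Atf7ip was at 327, 322, 336 and 351 CPM in untreated clones G4, H1, C3 and H5. With dTAG it was at 218, 199, 205 and 205 CPM in the same clones. All 4 clones fell to a narrow band, and the highest value with dTAG was below the lowest value without it. The means were 334 ± 12.9 and 207 ± 8.21 CPM (SD, n = 4). On the log2(CPM + 1) scale Atf7ip changed by -0.69 (SE 0.079, adjusted p = 0.000238). In the Dox libraries Atf7ip was at 269.5, 249, 314 and 329 CPM. With dTAG + Dox it was at 213, 192, 210.4 and 217 CPM. These groups did not overlap either, and the N-terminal clones G4 and H1 started lower with Dox than C3 and H5. The log2 change was -0.47 (SE 0.079, adjusted p = 0.0067), a ratio of 0.722. The call without Dox was kept under each of 12 alternatives, and the call with Dox under 9 of 12 (adjusted p 0.000105 to 0.107): it was lost without clone G4, without clone H5 and with only the compared libraries in the model.

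Setdb1 was at 143, 115, 158 and 133 CPM in untreated G4, H1, C3 and H5. With dTAG alone it was at 197, 219.6, 176 and 189 CPM. Each clone was higher with dTAG and the groups did not overlap, with H1 rising most and C3 least. The log2 change was 0.51 (SE 0.126, adjusted p = 0.0135). With Dox, Setdb1 was at 175, 180.0, 151 and 127 CPM. With dTAG + Dox it was at 211, 223, 168 and 192 CPM, again higher in each clone but with overlapping groups. That change was 0.33 (adjusted p = 0.101) and was not called. The call without Dox was kept under 6 of 12 alternatives (adjusted p 0.0116 to 0.181), and was lost with median-ratio scaling, with edgeR, with DESeq2 and without G4, H1 or H5. Setdb1 lies at chr3:95323525-95357202 on the minus strand.

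**Figure D2:**
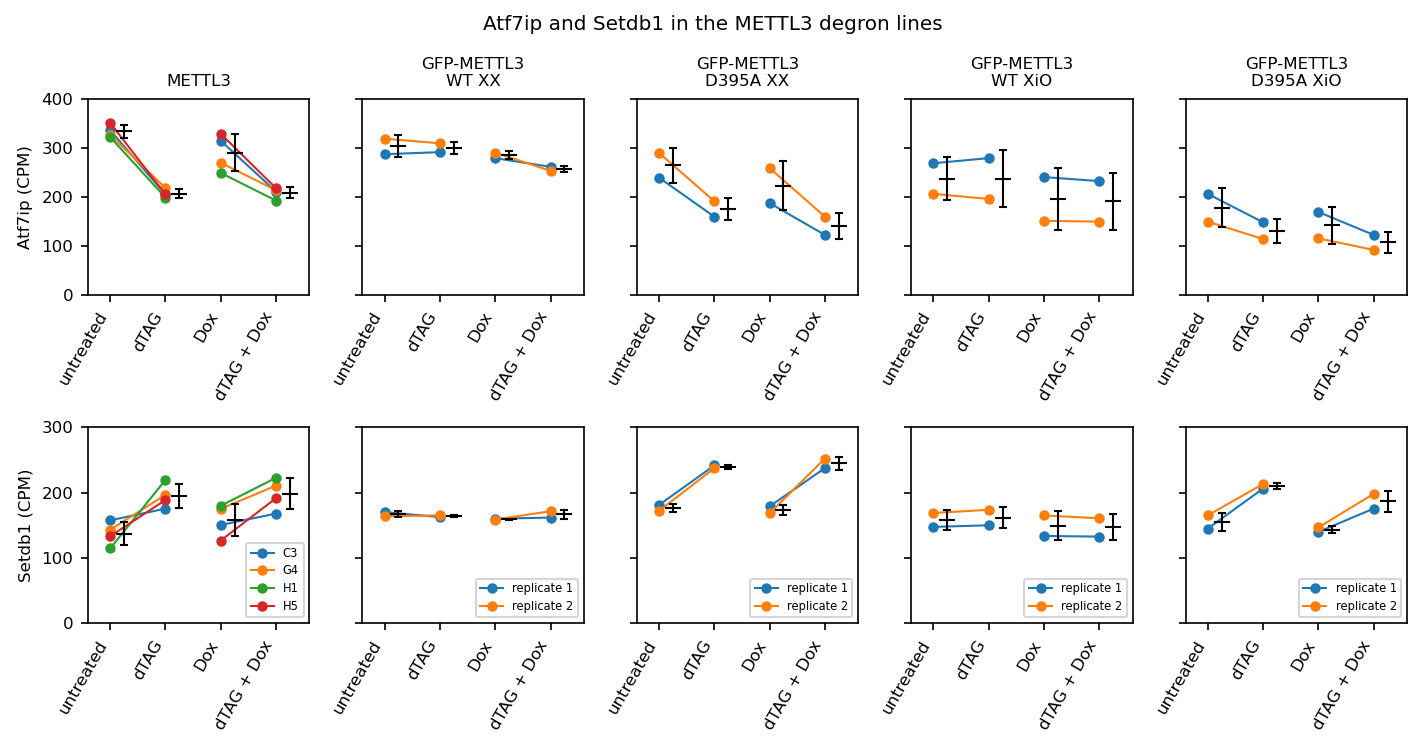
CPM of Atf7ip (top) and Setdb1 (bottom) in every library of the METTL3 clones and the transgene lines, with lines joining a clone or replicate across dTAG and black bars giving mean ± SD. Atf7ip falls and Setdb1 rises in each METTL3 clone and D395A replicate, from 334 to 207 CPM on average for Atf7ip without Dox, while values with and without dTAG lie close together in WT XX without Dox.

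Transgene lines gave the same genes in other cells, made from clone H5. With D395A in XX cells, Setdb1 was at 181 and 172 CPM untreated and at 242 and 238 CPM with dTAG. The corresponding values with Dox were 179 and 169 CPM and, with dTAG + Dox, 238 and 252 CPM. Both replicates were higher with dTAG in both settings, without overlap. Setdb1 rose by 0.44 without Dox (SE 0.077, adjusted p = 0.00896) and by 0.49 with Dox (SE 0.077, adjusted p = 0.00832) on the log2 scale, and was the only member called in either. The share of all genes called was 6.01% and 3.19%. With the replicate as a block, 7 members without and 4 with Dox were called, beside 37.5% and 29.3% of all genes, and Setdb1 had adjusted p = 9.12e-05 and 4.75e-05. In the fit without the block, both calls were lost without either D395A replicate and with median-ratio scaling, and the call without Dox also with edgeR.

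With WT in XX cells, Setdb1 was at 170.3 and 164 CPM untreated, at 163 and 165 with dTAG, at 160.1 and 159 with Dox and at 162 and 172 CPM with dTAG + Dox. The dTAG values overlapped the untreated ones, and those with dTAG + Dox were just above those with Dox, with log2 changes of -0.03 without and 0.06 with Dox. No member and no gene was called for WT in XX or in XiO cells, with or without Dox (0% of genes in each comparison by limma, and 0 genes by edgeR and by DESeq2). At an unadjusted p under 0.05, 29 genes without and 39 with Dox passed in WT XX, 18 and 14 in WT XiO, and 0 members in any of them. With the replicate block the WT lines again had 0 members and 0% of genes called in each comparison. The difference between the effects in D395A and WT was tested directly in each cell type. For Setdb1 in XX cells it was 0.47 without Dox (adjusted p = 0.152) and 0.43 with Dox (SE 0.108, adjusted p = 0.262) without the block. No member was called in that test in XX cells (0.00748% of genes called without Dox and 0.015% with Dox) or in XiO cells (0% in both by limma and by edgeR, 38 and 12 genes by DESeq2). At an unadjusted p under 0.05, 2 members passed in XX cells in each setting and 0 in XiO cells, where 622 genes passed without and 512 with Dox. With the replicate block the same differences were called for Setdb1, in XX cells (adjusted p = 0.00332 without and 0.00698 with Dox) and in XiO cells (0.40 in both settings, adjusted p = 0.00689 and 0.0106). In that fit 4 members were called in XX cells in each setting, beside 16.3% of all genes without and 12.1% with Dox, and in XiO cells 3 without and 2 with Dox, beside 14.1% and 9.3%. Setdb1 and Atf7ip were called in each of these comparisons, and the other members called there were Mphosph8 and Suv39h1 in XX cells without Dox, Trim28 and Zfp809 in XX cells with Dox, and Ehmt2 in XiO cells without Dox.

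Atf7ip in D395A XX cells was at 239 and 289.7 CPM untreated and at 159 and 191 CPM with dTAG. With Dox it was at 187 and 259 CPM, and with dTAG + Dox at 122 and 159 CPM. Replicate 1 was below replicate 2 throughout, and both were lower with dTAG. The log2 changes were -0.59 (adjusted p = 0.0624) and -0.66 (SE 0.168, adjusted p = 0.0616), just outside the threshold. Both were called with the replicate block (adjusted p = 1.01e-05 and 6.25e-06). In WT XX cells Atf7ip was at 287 and 319 CPM untreated and 291 and 309 CPM with dTAG, a change of -0.01. In the same WT cells it was at 279 and 290.3 CPM with Dox and at 261 and 253 CPM with dTAG + Dox, lower in both replicates but not called. The D395A minus WT difference for Atf7ip was -0.58 without Dox (adjusted p = 0.465, and 0.00113 with the replicate block) and -0.51 with Dox (adjusted p = 0.688, and 0.00334 with the block).

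XiO cells had wider replicates. D395A XiO cells had Setdb1 at 145 and 165 CPM untreated and 206 and 214 CPM with dTAG, and at 140.0 and 147 CPM with Dox and 176 and 198 CPM with dTAG + Dox. Each replicate was higher with dTAG, by 0.44 (adjusted p = 0.241) and 0.38 (SE 0.147, adjusted p = 0.374) on the log2 scale, and both changes were called with the replicate block (adjusted p = 0.000155 and 0.000513). Atf7ip was at 206 and 149 CPM untreated and 148 and 114 CPM with dTAG, a change of -0.43 (SE 0.322) within overlapping groups, which was called with the block (adjusted p = 0.000658). No member was called in D395A XiO cells (0.402% of genes without and 0.0521% with Dox), and 3 and 2 members passed an unadjusted p of 0.05. Of the members, edgeR called 0 in both settings and DESeq2 called 1 without and 0 with Dox. With the replicate block 7 members without and 4 with Dox were called, beside 34.4% and 31.1% of all genes. In D395A XX cells the summed mES markers were at 1430 to 1640 CPM without dTAG and at 1190 to 1290 CPM with it. In D395A XiO cells they were at 1130 to 1670 CPM without dTAG and at 1010 to 1220 CPM with it. In WT XiO cells they were at 617 to 805 CPM over the treatments. The part of these shifts in the changes above, and in the D395A minus WT differences, was not tested.

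Trim28 and Ehmt2, the G9a methyltransferase, varied most among METTL3 clones and were not called. Trim28 was at 203, 90.5, 114 and 163 CPM in untreated G4, H1, C3 and H5 and at 271, 289, 131 and 216 CPM with dTAG. It was at 373, 382, 72.4 and 108 CPM with Dox and at 277, 351, 298 and 126 CPM with dTAG + Dox. The N-terminal clones fell while the C-terminal clones rose in the Dox comparison, and the log2 changes were 0.67 without (adjusted p = 0.232) and 0.43 with Dox (adjusted p = 0.466). Ehmt2 was at 25.0, 17.3, 13.2 and 18.3 CPM untreated, at 67.5, 93.4, 17.7 and 39.3 with dTAG, at 49.7, 79.2, 6.76 and 8.92 with Dox and at 55.5, 86.0, 48.1 and 19.5 CPM with dTAG + Dox. Its changes, 1.31 without (SE 0.456, adjusted p = 0.0544) and 1.00 with Dox (adjusted p = 0.154), were the widest of the 10 members in this line. The share of reads on genes under 3 kb rose in C3 from 0.497% with Dox to 4.57% with dTAG + Dox, as both genes did. In the other clones it fell, from 2.95 to 2.07% in G4, from 2.44 to 1.73% in H1 and from 1.21 to 1.04% in H5. Ehmt2 was higher in each of these, while Trim28 was lower in G4 and H1 and higher in H5. Without Dox the share rose with dTAG in H1 (1.02 to 1.89%), C3 (0.797 to 1.22%) and H5 (1.78 to 3.38%). It fell in G4 (2.53 to 2.46%), and both genes were higher in each clone. With this share as a covariate, Ehmt2 changed by 0.97 without Dox (adjusted p = 0.0351) and by 0.73 with Dox (adjusted p = 0.119), and Trim28 by 0.37 and 0.18. With the same covariate Atf7ip kept changes of -0.67 and -0.45 and stayed called.

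**Figure D3:**
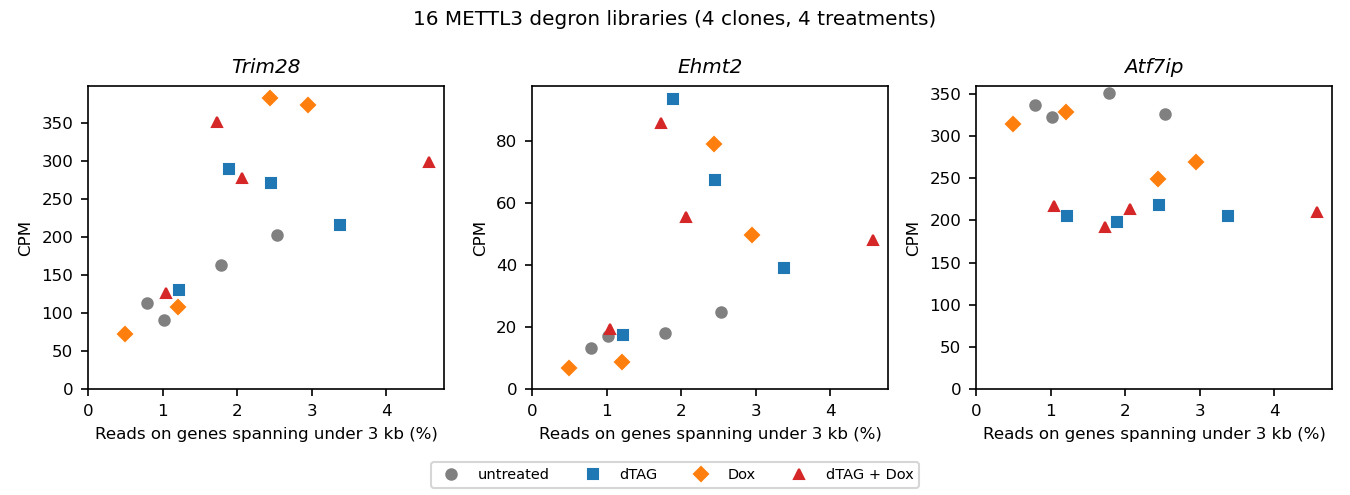
CPM of Trim28, Ehmt2 and Atf7ip in the 16 METTL3 degron libraries against the percent of reads on genes spanning under 3 kb, with a symbol for each treatment. Trim28 and Ehmt2 are lowest, at 72.4 and 6.76 CPM, in the library with the lowest share, while Atf7ip separates by dTAG at any share.

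Among the HUSH and MORC members, Mphosph8 was lower and Morc3 changed little after METTL3 loss. Mphosph8 was at 124, 136, 156 and 136 CPM in untreated G4, H1, C3 and H5 and at 106, 108, 139 and 123 CPM with dTAG. Each clone was lower, and the groups overlapped because C3 was high in both. The log2 change was -0.22 (SE 0.074, adjusted p = 0.0499), a call kept under 3 of 12 alternatives (adjusted p 0.00727 to 0.323). With Dox, 132, 127, 183 and 161 CPM went with 116, 113, 154 and 138 CPM after dTAG, a change of -0.21 (adjusted p = 0.0853). In D395A XX cells Mphosph8 was at 171 and 159 CPM untreated and 122 and 119.5 CPM with dTAG, lower in both replicates by 0.45 on the log2 scale (adjusted p = 0.229, and 0.00531 with the replicate block). Morc3 stayed between 190.6 and 297 CPM in all 80 libraries, and was called in no comparison. Its changes in METTL3 were 0.08 without and 0.03 with Dox.

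The pericentromeric methyltransferase gene Suv39h2 differed between METTL3 clones before any treatment. It was at 41.8, 51.1, 38.6 and 75.2 CPM untreated and at 53.7, 52.8, 80.3 and 134 CPM with dTAG in G4, H1, C3 and H5. Clone H5 was highest in both, C3 and H5 rose most, and H1 moved little. The log2 change of 0.57 (SE 0.153, adjusted p = 0.0199) was called, and kept under 4 of 12 alternatives. With Dox the change was 0.47 (adjusted p = 0.0669). In the transgene XX lines, untreated Suv39h2 was at 76.3 and 78.1 CPM in the WT clone and at 32.8 and 38.8 CPM in the D395A clone. With the replicate block, Suv39h2 was called higher with dTAG in D395A XX without Dox (0.391) and in D395A XiO (0.205 without and 0.212 with Dox). It was not called in D395A XX with Dox. In the same fit Suv39h1 was called higher in D395A XX (0.457 without and 0.394 with Dox, adjusted p = 0.00107 and 0.00405). It was also called in D395A XiO without Dox (0.232) but not with Dox. In METTL3, Suv39h1 changed by 0.19 without and 0.37 with Dox (adjusted p = 0.142) and was not called. Ehmt1, the GLP partner of G9a, was at 274, 285, 358 and 290.4 CPM untreated and at 282, 287, 224 and 217 CPM with dTAG. The 2 C-terminal clones were lower with dTAG and the 2 N-terminal clones were level, and the change of -0.26 was not called (adjusted p = 0.114).

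Zfp809, whose product binds the primer binding site of murine leukemia virus type elements, was higher with dTAG in each METTL3 clone. Its values in G4, H1, C3 and H5 were 93.2, 107, 72.9 and 94.8 CPM untreated and 122, 132, 84.3 and 128 CPM with dTAG. C3 was lowest in both groups, which overlapped. The log2 change was 0.33 (SE 0.101, adjusted p = 0.0327), kept under 3 of 12 alternatives. In D395A XX cells with Dox it was at 55.7 and 63.4 CPM, and with dTAG + Dox at 80.7 and 83.2 CPM. That change was 0.46 (adjusted p = 0.0681, and 0.000348 with the replicate block). In D395A XiO cells Zfp809 was at 64.3 and 58.3 CPM untreated and 88.1 and 76.1 CPM with dTAG, 0.41 higher on the log2 scale and called with the replicate block only (adjusted p = 0.00107). In METTL3 the summed fibroblast markers, mostly Fbn1, were at 25.9 to 40.9 CPM untreated and 36.7 to 46.4 CPM with dTAG, and their part in these changes was not tested.

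After loss of the m6A reader YTHDC1, Setdb1 rose and no other member was called. That count was below the share of all genes called in each comparison. In the shared table Setdb1 was at 187 and 192 CPM in untreated Y9F and Y12H and at 223 and 234 CPM with dTAG. With Dox it was at 189 and 201 CPM, and with dTAG + Dox at 228 and 235 CPM. Both clones were higher with dTAG in both settings, and the groups did not overlap. Setdb1 rose by 0.27 without Dox (SE 0.052, adjusted p = 0.00203) and by 0.24 with Dox (SE 0.052, adjusted p = 0.00476) on the log2 scale. It was the only member called, where 19% and 15.5% of all genes were called.

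In the separate table Setdb1 was at 155 and 160.2 CPM untreated and at 182 and 186 CPM with dTAG in Y9F and Y12H. With Dox it was at 165 and 162 CPM, and with dTAG + Dox at 182 and 186 CPM. Again each clone was higher with dTAG and the groups did not overlap. The change was 0.22 without Dox (SE 0.06, adjusted p = 0.013), called, and 0.17 with Dox (SE 0.06, adjusted p = 0.0656), not called, beside 17.8% and 14.7% of genes called. In all, Setdb1 was higher with dTAG in 8 of 8 comparisons of a YTHDC1 clone with itself, by 0.14 to 0.29. These comparisons reuse clones Y9F and Y12H over both experiments and both Dox settings, so they are not independent of each other. In the shared table the call with Dox was lost without the clone block. Both calls there, with and without Dox, were lost without Y9F and without Y12H, which leaves a single YTHDC1 clone. In the separate table no member was called with Dox by limma, edgeR or DESeq2, and 1 passed an unadjusted p of 0.05. Fbn1, which made up most of the fibroblast marker sum, was higher with YTHDC1 loss in the shared table without Dox (0.32) and in the separate table (0.30 without and 0.43 with Dox). The sum over the 8 markers was at 31.3 to 32.8 CPM untreated and 38.9 to 39.0 CPM with dTAG in the shared table, and its part in the changes of Setdb1 was not tested.

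The partner Atf7ip was not called after YTHDC1 loss, and its changes were near 0. It was at 281 and 302 CPM untreated and at 282 and 294 CPM with dTAG in the shared table, a change of -0.02, and its change ranged from -0.02 to 0.04 over the 4 YTHDC1 comparisons. Suv39h2 was higher in the shared table, at 34.4 and 38.3 CPM untreated and 42.5 and 42.2 CPM with dTAG. The groups did not overlap, but the change of 0.22 was not called. The median member moved by 0.03 without and 0.04 with Dox in the shared table.

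After loss of ZCCHC8 other members were called. Suv39h1 and Zfp809 rose with and without Dox, Suv39h2 fell with Dox, and Trim28 and Ehmt2 fell and Atf7ip rose without Dox. Thus 5 members without and 3 with Dox were called, in a comparison where 36.1% and 40.4% of all 13857 genes were called. The count with Dox was below that share. Suv39h1 was at 28.8 and 23.2 CPM in untreated Z4F and Z12H and at 35.9 and 33.8 CPM with dTAG. With Dox it was at 26.4 and 25.9 CPM, and with dTAG + Dox at 36.9 and 36.8 CPM. Both clones were higher with dTAG and the groups did not overlap. The log2 changes were 0.42 (SE 0.094, adjusted p = 0.00268) and 0.48 (SE 0.094, adjusted p = 0.00066). The call with Dox was kept under all 9 alternatives and the other under 8, being lost without Z12H.

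Its paralog Suv39h2 went the other way. With Dox it was at 37.8 and 35.0 CPM in Z4F and Z12H, and with dTAG + Dox at 31.6 and 27.6 CPM. Both clones were lower without overlap, by 0.29 on the log2 scale (SE 0.083, adjusted p = 0.0107). Without Dox the change was -0.20 and was not called. Zfp809 was at 80.0 and 83.5 CPM untreated and 97.3 and 104 CPM with dTAG, and at 73.2 and 74.9 CPM with Dox and 86.5 and 94.6 CPM with dTAG + Dox. It was higher in both clones in each setting, by 0.30 (SE 0.064, adjusted p = 0.00192) and 0.29 (SE 0.064, adjusted p = 0.00211).

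Trim28 was at 262 and 234 CPM in untreated Z4F and Z12H and at 201 and 195 CPM with dTAG. Both clones fell to nearly the same level. The log2 change was -0.32 (SE 0.06, adjusted p = 0.0006), kept under all 9 alternatives (-0.38 to -0.26). With Dox it was at 307 and 283 CPM and, with dTAG + Dox, at 289 and 287 CPM, a change of -0.03. The difference of the ZCCHC8 effects with and without Dox was tested for each member. For Trim28 it was 0.29 (SE 0.084, adjusted p = 0.256), and no member was called in this test in any line by limma, edgeR or DESeq2, with Trim28 in ZCCHC8 the 1 member at an unadjusted p under 0.05. The share of all genes called in it was 0.238% in ZCCHC8, 0.00722% in the shared and 0.0219% in the separate YTHDC1 table, and 0% in the METTL3, ZFC3H1 and transgene lines. Ehmt2 was at 30.04 and 21.3 CPM untreated and 23.8 and 16.6 CPM with dTAG, lower in both clones by 0.33 on the log2 scale (SE 0.11, adjusted p = 0.0261) in overlapping groups. Atf7ip was at 284 and 319.6 CPM untreated and 340.1 and 331 CPM with dTAG, 0.16 higher (SE 0.054, adjusted p = 0.0331), a call kept under 3 of 9 alternatives.

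Setdb1 was not called after ZCCHC8 loss. It was at 196 and 185 CPM untreated, 194 and 190.3 with dTAG, 195 and 194 with Dox and 189.6 and 203 CPM with dTAG + Dox, with changes of 0.02 and 0.01 (adjusted p = 0.847 and 0.87). The ZCCHC8 and YTHDC1 effects share a table but no library, so their difference was tested in the fit (ZCCHC8 minus YTHDC1). For Setdb1 it was -0.25 without Dox (adjusted p = 0.0193) and -0.23 with Dox (adjusted p = 0.0265). Suv39h2 differed by -0.42 (adjusted p = 0.0158) and -0.50 (adjusted p = 0.00438), and Zfp809 by 0.27 (adjusted p = 0.0379) and 0.28 (adjusted p = 0.0275). Without Dox, Trim28 differed by -0.33 (adjusted p = 0.00817) and Suv39h1 by 0.39 (adjusted p = 0.0408). Thus 5 members without and 3 with Dox were called in this test, beside 25.1% and 29.6% of all genes, so the count with Dox was at the background.

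**Figure D4:**
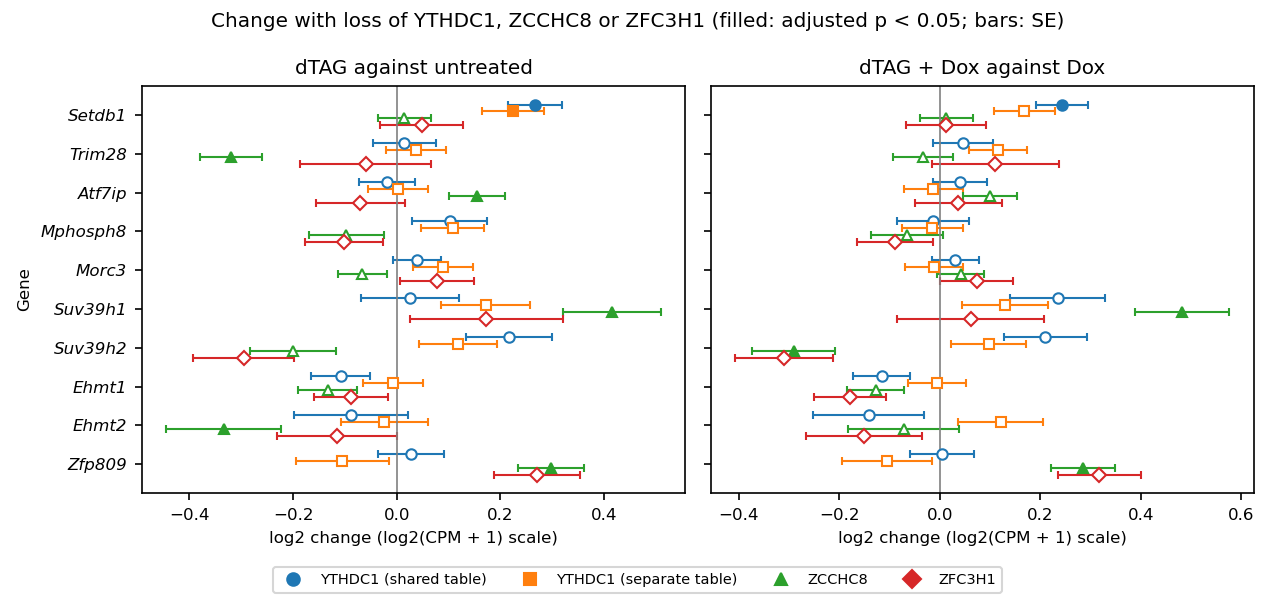
Log2 change (log2(CPM + 1) scale) of each gene with loss of YTHDC1, ZCCHC8 or ZFC3H1, without Dox (left) and with Dox (right), with bars for the SE and filled symbols for an adjusted p under 0.05. Setdb1 is at 0.17 to 0.27 in YTHDC1 and near 0 in both adaptor lines, while Suv39h2 is below 0 and Zfp809 above 0 in both ZCCHC8 and ZFC3H1.

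After ZFC3H1 loss no member was called in limma or by edgeR or DESeq2, where limma called 2.15% of 13544 genes without and 3.15% with Dox. At an unadjusted p under 0.05, 2 members passed without and 3 with Dox. Zfp809 was at 106 and 93.3 CPM in untreated 8H and 11A and at 121 and 119 CPM with dTAG, and at 94.4 and 92.5 CPM with Dox and 113 and 120.1 CPM with dTAG + Dox. The values with dTAG were above those without in both settings. The changes were 0.27 (adjusted p = 0.134) and 0.32 (adjusted p = 0.0717). Suv39h2 was at 55.2 and 44.8 CPM untreated and 43.9 and 37.1 CPM with dTAG, and at 45.8 and 40.9 CPM with Dox and 35.1 and 34.3 CPM with dTAG + Dox. It was lower in both clones in both settings, by 0.30 and 0.31 on the log2 scale (adjusted p = 0.158 and 0.121). Setdb1 changed by 0.05 and 0.01, and Trim28 by -0.06 and 0.11. ZFC3H1 lies in another table than ZCCHC8, and the difference between these lines was not tested.

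Dox by itself moved few members. Trim28 was higher with Dox in ZCCHC8 (0.25, adjusted p = 0.0108), from 262 and 234 to 307 and 283 CPM, and Ehmt2 was lower in the separate YTHDC1 table (-0.40, adjusted p = 0.00326), from 37.4 and 34.7 to 28.3 and 25.9 CPM. The groups of Trim28 and of Ehmt2 did not overlap. No other member was called for Dox against untreated in any line, with the transgene lines fitted without a replicate block. All genes called in that comparison made up 0.778% in METTL3, 12.6% in the shared and 10% in the separate YTHDC1 table, 10.9% in ZCCHC8 and 1.11% in ZFC3H1. In the transgene lines they made up 0.232% in D395A XX, 0.00748% in WT XX, 0.58% in D395A XiO and 1.17% in WT XiO.

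Suv39h1 is the only member on the X chromosome (chrX:8061171-8074760, minus strand), so its allelic ratio was compared in the XX lines. The ratio is the share of variant-covering reads from the X that carries inducible Xist, Xi/(Xi + Xa), with at least 10 such reads and with unknown depth above that. With Dox alone the median X-linked gene was at 0.179 to 0.293 over the libraries, while Suv39h1 was at 0.386 to 0.559. In the 4 METTL3 clones Suv39h1 was at 0.424, 0.584, 0.418 and 0.606 untreated and at 0.449, 0.543, 0.462 and 0.489 with Dox, in G4, H1, C3 and H5. G4 and C3 were slightly higher and H1 and H5 lower with Dox, and the difference was -0.023 beside -0.185 for the median X gene. In ZCCHC8 the ratio was 0.474 and 0.524 untreated and 0.481 and 0.548 with Dox. In the separate YTHDC1 table it was 0.507 and 0.552 untreated and 0.514 and 0.559 with Dox. Neither line showed a fall. Suv39h1 passed the test for Dox in WT XX and in the shared YTHDC1 table, with a fall of the ratio in both, and not in the separate table of the same YTHDC1 clones or in the other XX lines.

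The ratio of Suv39h1 fell in the shared YTHDC1 table from 0.570 and 0.541 untreated to 0.488 and 0.436 with Dox in Y9F and Y12H, a difference of -0.094 (SE 0.021, adjusted p = 0.00263) beside -0.236 for the median X gene. In WT XX it fell from 0.490 and 0.519 to 0.386 and 0.444, a difference of -0.089 (SE 0.028, adjusted p = 0.0109). The experiments with the same YTHDC1 clones thus gave different calls for Suv39h1, with differences of -0.094 and 0.007. With Dox against untreated, 90.2% of X-linked ratios were called in METTL3, 93.5% in the shared table for YTHDC1 and for ZCCHC8, 89.6% in the separate YTHDC1 table, 55.9% in ZFC3H1, 92.7% in D395A XX and 88.3% in WT XX. In total CPM, Suv39h1 did not pass the test for Dox in any line, with the transgene lines fitted without the replicate block. Its change with Dox ranged from -0.35 in WT XiO, which was called with the block, to 0.19 in D395A XiO. Both of these lines hold only the X with inducible Xist.

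With loss of the factors under Dox, the Suv39h1 ratio moved in 2 lines. In the shared YTHDC1 table it rose from 0.488 and 0.436 with Dox to 0.535 and 0.543 with dTAG + Dox. That difference was 0.077 (SE 0.021, adjusted p = 0.0444), beside 0.045 for the median X gene. In the separate table it changed by -0.043 (adjusted p = 0.202), beside 0.037 for the median X gene. In D395A XX it fell from 0.460 and 0.408 to 0.344 and 0.333. That difference was -0.096 (SE 0.028, adjusted p = 0.0373), beside -0.055 for the median X gene, so in both called lines the median X gene moved the same way. The difference in ZFC3H1 was -0.107, in 2 clones at 0.451 and 0.541 with Dox and at 0.388 and 0.389 with dTAG + Dox, and was not called. In METTL3 it was -0.005, beside -0.064 for the median X gene, and in ZCCHC8 -0.009 beside -0.067. The share of ratios called between dTAG + Dox and Dox was 55.3% in METTL3, 14.8% in the shared YTHDC1 table, 47.5% in ZCCHC8, 21% in D395A XX, 0.488% in WT XX, and 0% in the separate YTHDC1 table and in ZFC3H1.

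**Figure D5:**
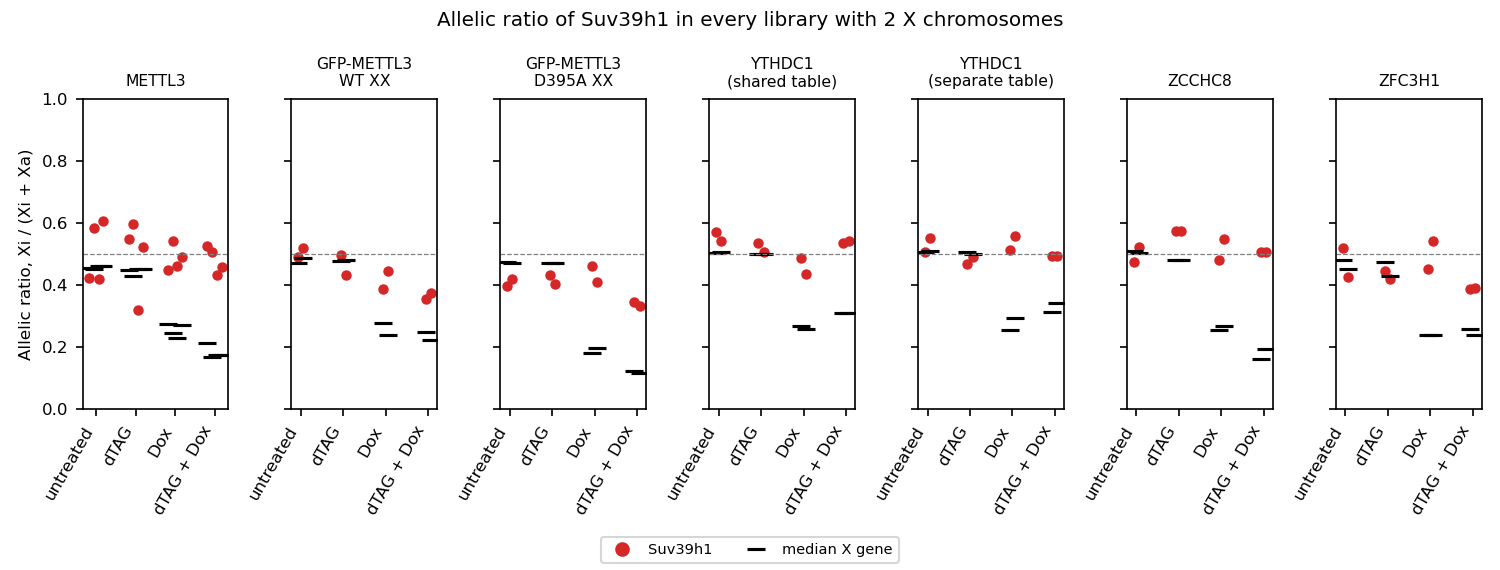
Allelic ratio Xi/(Xi + Xa) of Suv39h1 (red points, 1 per library) and of the median X-linked gene in the same library (black dashes), by treatment and line, with the dashed line at equal expression of both alleles. With Dox alone the median gene is at 0.179 to 0.293 and Suv39h1 at 0.386 to 0.559, with a called fall of Suv39h1 in WT XX and shared-table YTHDC1.

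Other genes of these pathways were described by the same fits, and the changes named here are those called at an adjusted p under 0.05 over all genes. Of 6 HUSH and MORC genes, Morc1, a germline MORC ATPase, was lower after METTL3 loss (-0.95 without and -0.64 with Dox) and in D395A XX (-0.98 and -0.93). Tasor2 was higher after METTL3 loss (0.98 and 0.54) and in the shared YTHDC1 table (0.44 and 0.22). Tasor, the scaffold of HUSH, was higher in all 4 YTHDC1 comparisons, by 0.19 to 0.29, and Morc4 in the shared table without Dox (0.34). In ZCCHC8, Morc2a (-0.16) and Morc1 (-0.14) were lower with Dox and Tasor2 (-0.23) without. No gene of this list was called in ZFC3H1, WT XX or the XiO lines by limma. The median change of the list in the shared YTHDC1 table was 0.14 without and 0.13 with Dox, beside 0.00 and 0.02 for the median gene, and in METTL3 0.08 and 0.12, beside 0.21 and 0.23.

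Of 14 partners of SETDB1, TRIM28 and EHMT, 3 were called after METTL3 loss without Dox, a share near the 23.3% of all genes, Chd4 at 0.83, Cdyl at -0.66 and Atf7ip2, the paralog of Atf7ip, at -0.35, and none was called with Dox. In the shared YTHDC1 table Hdac1 was lower (-0.24 without and -0.25 with Dox) and Setdb2 higher (0.22 and 0.24), and Sumo2 (-0.27), which encodes a SUMO modifier, was lower without Dox. In ZCCHC8, Wiz, a zinc finger partner of G9a and GLP, was lower in both settings (-0.36 and -0.41), and Hdac2 (-0.23) and Zfp644 (-0.15) were lower without Dox, while Atf7ip2 (0.31) and Adnp (0.29) were higher with Dox. The 3 called there with Dox and the 4 without were a lower share of the list than the 40.4% and 36.1% of all genes. The median change of the list was -0.07 in both shared YTHDC1 comparisons and 0.07 and 0.12 in METTL3. Of 4 tested readers and writers of constitutive heterochromatin, Uhrf1 (-0.55 and -0.35), Cbx1 (-0.20 and -0.29) and Cbx5 (-0.20 and -0.22) were lower in the shared YTHDC1 table without and with Dox, while Cbx5, the gene of HP1 alpha, was higher after METTL3 loss (1.09 and 0.53). In ZCCHC8 Uhrf1 was lower too (-0.36 and -0.25) and Cbx5 was higher with Dox (0.23), and in ZFC3H1 Cbx5 was lower without Dox (-0.41). The separate YTHDC1 table had 2 of these 4 genes lower without and 3 with Dox. All genes called made up 17.8% without and 14.7% with Dox there, and 19% and 15.5% for YTHDC1 in the shared table.

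Of 6 H3K9 demethylases, Kdm3b was higher in the shared YTHDC1 table (0.44 without and 0.35 with Dox), as was Kdm4c (0.28 and 0.26). Both were also higher in the separate table, where Kdm4b was lower without Dox (-0.29) and Kdm3a with Dox (-0.18). The median change of the list in the shared table was -0.09 without and -0.08 with Dox. Kdm4d was higher in ZCCHC8 (1.08 and 0.98), where Kdm4b (-0.40) and Kdm3a (-0.17) were lower without Dox and Kdm4c (-0.18) with Dox. After METTL3 loss Kdm4c was lower without Dox (-0.56) and Kdm4d higher with Dox (0.66). Of 6 KRAB zinc finger genes with known targets, Zfp57, the guardian of imprints, was lower in the shared YTHDC1 table (-0.43 and -0.59) and Zfp445 higher (0.41 and 0.42). Zfp57 was lower in ZCCHC8 as well, with Dox (-0.31). Zfp932 was higher in ZCCHC8 (0.54 and 0.51), after METTL3 loss (0.48 and 0.47) and in ZFC3H1 with Dox (0.36).

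Germline genes that mES cells keep silent, some of them targets of H3K9 methylation, were called in several lines. Of 11 tested in ZCCHC8, 4 were higher without and 7 with Dox and none was lower, beside 36.1% and 40.4% of all genes called, so the count without Dox was at the background. Among them were Mael (0.50 and 0.80) and Sycp1 (0.56 in both). For YTHDC1 in the shared table, 2 genes without and 4 with Dox were higher, with Taf7l at 0.72 and 0.81 and Ddx4 at 0.60 and 0.52. All genes called there made up 19% without and 15.5% with Dox, so the count without Dox was near the background. Of 10 tested in METTL3 without Dox, 4 were higher, including Taf7l (0.66), and Hormad1 was lower (-0.45), beside 23.3% of all genes called. The median change of the list was 0.18 and 0.41 in ZCCHC8, beside -0.01 and 0.04 for the median gene, and 0.35 in METTL3 without Dox, beside 0.21. Genes of the 2-cell-like state passed the filter of 1 CPM in the tables of ZCCHC8 and YTHDC1 alone. Of 10 listed, 9 were in the tables, and 7 passed in the shared table, through the ZCCHC8 libraries with dTAG where they were high, so their count says nothing by itself. All 7 were higher after ZCCHC8 loss, by 0.68 to 2.17. After YTHDC1 loss in the same table, Zscan4d (-0.56) and Zscan4f (-0.54) were lower without Dox and Zscan4f (-0.49) and Usp17lc (-0.49) with Dox. The Zscan4 and Usp17l genes share reads with near-identical copies.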

How the data were processed

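ChrRNA-seq values of 80 libraries were analysed. To make the deposited CPM, the authors filtered rRNA reads out with bowtie2, mapped the others with STAR to mm10 masked at the variants of both strains, kept unique alignments, counted by strand over gene spans with featureCounts and scaled with edgeR. The deposited allelic ratios are fractions, Xi/(Xi + Xa), made by the authors with SNPsplit. In every column 100% of CPM values came out as whole reads (tolerance 0.0001 CPM), which gave the depths and the reads for edgeR 4.0.16 (892 genes called in METTL3 with Dox and 2490 without) and DESeq2 1.42.0. limma 3.58.1 in R 4.3.3 (lmFit, eBayes with trend, two-sided) was run on log2(CPM + 1) for genes averaging at least 1 CPM, with all libraries of a table in the fit and Benjamini-Hochberg adjustment; low genes have understated changes on this scale. Ratios were tested by limma without a log. Groups came from the labels. Degron lines were blocked by clone, which the labels name; residuals of a clone's libraries correlated across genes at -0.18 to 0.86 in METTL3 and 0.18 to 0.90 elsewhere. In the transgene lines the replicate number of the labels was a block in an alternative fit; per the study's methods, wells of a biological replicate came from a common batch of cells, and residuals of same-numbered libraries correlated at 0.43 to 0.92. The fit was tested on simulated data. Titles give 26 h for dTAG alone and the treatment field 2 h, and titles were followed. Both YTHDC1 tables have the same column names, and the one named as second replicate was taken as the second experiment. Another 24 columns were not used here. Replicates differed beyond counting error (lowest chi-square per degree of freedom 8.05). The 10 members and all lists were chosen with earlier results of these data known; of the related lists at most 4 called genes per list and comparison were named, and 1 gene of these lists is not reported here. Coordinates are GRCm38. Alternatives were a pseudocount of 0.5, no filter, median-ratio scaling, edgeR, DESeq2, the block, only the compared libraries, the short-gene share (METTL3), each replicate left out and, for ratios, the logit scale.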

Additional observations from a re-analysis of the deposited data

Results flagged for a closer look

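A library was compared with its group in 80 groups of 4 values (a member in a treatment, over the METTL3 clones or over the YTHDC1 clones of both experiments), and chance alone flags about 1 in 20 such groups. In 3 groups a single library stood far from the others. Suv39h2 was at 126 CPM in METTL3 clone H5 with dTAG + Dox, against 53.2 to 58.8 CPM in the other clones. In YTHDC1 with dTAG, Suv39h2 was at 49.3 CPM in Y9F of the separate table, and Ehmt1 with Dox was at 286 CPM in Y9F of the shared table.

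The effect of dTAG differed between ZCCHC8 and YTHDC1 by a test of the difference itself (ZCCHC8 minus YTHDC1, log2 scale, limma adjusted p under 0.05). Over all genes, 29.6% with and 25.1% without Dox were called in this test. With Dox the difference was -0.50 for Suv39h2, -0.23 for Setdb1 and 0.28 for Zfp809. Without Dox it was -0.42 for Suv39h2, -0.25 for Setdb1, -0.33 for Trim28, 0.27 for Zfp809 and 0.39 for Suv39h1. For Suv39h2 the effects had opposite signs, -0.29 in ZCCHC8 and 0.21 in YTHDC1 with Dox, of which the first was called.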

How the results depend on the processing

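Of 1600 member changes recomputed under the alternatives, 1408 kept their direction and side of the threshold, 62 calls were lost, 51 were gained, 79 changed sign with neither value called, and 0 called changes reversed. Counts of members called moved as follows. METTL3 with Dox (1 called) gave 2 with median-ratio scaling, edgeR or DESeq2, 0 with only the compared libraries, and 0 to 1 when a clone was left out (0 without G4 or H5). METTL3 without Dox (5) gave 3 with median-ratio scaling or only the compared libraries, 2 with edgeR or no replicate block, and 1 to 3 when a clone was left out. Shared-table YTHDC1 gave 0 of 1 with Dox with no replicate block and 0 in both settings when either clone was left out. ZCCHC8 with Dox (3) gave 6 with median-ratio scaling and 1 to 3 when a clone was left out (1 without Z12H), and without Dox (5) gave 3 with no replicate block and 2 to 3 when a clone was left out. Separate-table YTHDC1 gave 1 with Dox with only the compared libraries (from 0), and 0 without Dox with no replicate block (from 1). ZFC3H1 with Dox gave 3 with only the compared libraries (from 0). D395A XX with Dox (1) gave 2 with edgeR or DESeq2 and 4 with a replicate block, and without Dox (1) gave 3 with DESeq2, 7 with a replicate block and 4 with only the compared libraries, with 0 in both when a D395A replicate was left out. D395A XiO with Dox (0) gave 4 with a replicate block, and without Dox (0) gave 1 with DESeq2 and 7 with a replicate block. D395A minus WT (0) gave 4 in both XX settings, and 2 with and 3 without Dox in XiO cells, with a replicate block. ZCCHC8 minus YTHDC1 with Dox (3) gave 1 with no replicate block and 1 to 2 when a clone was left out, and without Dox (5) gave 0 with no replicate block, 3 with DESeq2 and 1 to 4 when a clone was left out. The cause of these shifts was not tested, except that leaving out a clone also leaves fewer samples.

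The replicate block raised the calls over all genes as well, to 29.3% and 37.5% in D395A XX and 31.1% and 34.4% in D395A XiO with and without Dox, so the 4 members called in the Dox comparisons were near that background. With a replicate block, the change of Suv39h1 with Dox in WT XiO, -0.352, was called. The Suv39h1 ratio with dTAG + Dox against Dox in shared-table YTHDC1 was 0.077 and no longer called with no replicate block, and 0.047 to 0.107 when a clone was left out. In D395A XX it was -0.116 to -0.075 when a replicate was left out. Its change with Dox was -0.105 to -0.083 in shared-table YTHDC1 and -0.104 to -0.075 in WT XX when a clone or replicate was left out. In the separate YTHDC1 table and in ZFC3H1 leaving out a clone left no spread to test, so the values of each clone stand in its place. Counts over the related lists stayed within 1.5 times in 644 of 810 recomputed.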

Other observations

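Several limits hold for the silencer genes above. Each transgene line was a single clone, so WT and D395A cannot be told apart from clone differences such as untreated Suv39h2, at 76.3 and 78.1 CPM in WT XX and at 32.8 and 38.8 CPM in D395A XX. ChrRNA-seq reads intronic RNA over gene spans, so changes in RNA splicing, stability or release from chromatin are not separated from transcription. The degron lines of ZCCHC8 and ZFC3H1 lie in different tables and carry TetOn on different alleles. No protein or H3K9me3 level was analysed here, and the allelic ratios of Suv39h1 come without read numbers.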
